A study of Rattus norvegicus with 12 samples.

Results

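Cpa6, Neto2, Oas1k, Cntn6 and Pfkfb4 are 5 genes of the rat ventral prostate whose transcript levels were far lower after each of 3 androgen deprivation procedures than in control rats. They are 5 of the 14506 genes measured. They were chosen by these very differences, that is, by lower values in every treated group than in the control group on the same arrays. Each is therefore described against control without a test. Each is represented by the probe set annotated with its symbol alone, and each had only 1 such probe set.

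The 12 arrays were divided into 4 groups of 3, all of ventral prostate from male Wistar rats aged 90 days at treatment and killed 3 days later. Control rats kept their testes and received corn oil, the vehicle of the hormone. Castrated rats had their testes removed with ketamine at 150 mg/kg and xylazine at 10 mg/kg as anaesthesia. Estradiol rats kept their testes and received 17β-estradiol at 25 mg/kg in corn oil. The combined group had both the operation and the hormone. No operation is described for control rats, so the operation and its anaesthesia cannot be told apart from the loss of the testes. The labels do not say whether rats that were only castrated received corn oil. The design names 48 rats without saying how many contributed to each of the 12 arrays. No label links an array to an animal, so the p-values cover only the spread among these samples, part of which may be technical.

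The ventral prostate is a lobe of glandular epithelium in a stroma of smooth muscle, and its secretion depends on androgen from the testes. Androgen acts through the androgen receptor, a nuclear receptor that binds DNA and drives secretory genes such as Pbsn, which encodes probasin. Removal of the testes takes away the main source of the hormone. A high dose of estradiol lowers the pituitary signal that drives the testes to make it, and the gland also holds oestrogen receptors. In such bulk tissue, fewer cells of a type and less RNA per cell cannot be told apart.

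The 5 genes have unlike products. Cpa6 encodes a secreted metallocarboxypeptidase that is held in the extracellular matrix and removes residues from the C-terminal end of peptides. Neto2 encodes a transmembrane auxiliary subunit of kainate-type glutamate receptors. Cntn6 encodes a contactin, an immunoglobulin-family adhesion molecule of neurons that is anchored in the membrane by a lipid and can act as a Notch ligand. Oas1k is one of the rodent copies of the 2'-5' oligoadenylate synthetase 1 gene, a family of interferon-induced genes that sense double-stranded RNA. Pfkfb4 encodes a bifunctional enzyme that makes and breaks down fructose 2,6-bisphosphate, the activator of the glycolytic enzyme phosphofructokinase.

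Promoter sequences, from 250 bases before to 50 bases after the annotated start, were taken from RefSeq on the GRCr8 build and were found for 3 of the 5 genes. They are shown because the 5 genes were lower together, so that the letters before their start sites can be compared. The Neto2 promoter lies at chr19:37517305-37517604, that of Cntn6 at chr4:138911317-138911616 and that of Pfkfb4 at chr8:118525916-118526215, all on the plus strand. Capitals mark GC boxes, GGGCGG or its reverse complement CCGCCC.
Neto2: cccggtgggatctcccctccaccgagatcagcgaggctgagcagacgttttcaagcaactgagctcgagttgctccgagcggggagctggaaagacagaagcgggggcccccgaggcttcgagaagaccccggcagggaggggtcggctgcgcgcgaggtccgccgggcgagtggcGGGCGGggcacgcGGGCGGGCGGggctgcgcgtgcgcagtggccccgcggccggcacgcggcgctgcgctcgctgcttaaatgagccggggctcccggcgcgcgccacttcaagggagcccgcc
Cntn6: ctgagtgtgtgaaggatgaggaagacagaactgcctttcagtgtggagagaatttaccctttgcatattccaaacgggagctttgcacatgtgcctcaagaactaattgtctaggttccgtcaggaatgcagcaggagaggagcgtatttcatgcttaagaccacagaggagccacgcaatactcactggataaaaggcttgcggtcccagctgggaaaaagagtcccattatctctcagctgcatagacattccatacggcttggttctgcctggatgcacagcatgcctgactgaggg
Pfkfb4: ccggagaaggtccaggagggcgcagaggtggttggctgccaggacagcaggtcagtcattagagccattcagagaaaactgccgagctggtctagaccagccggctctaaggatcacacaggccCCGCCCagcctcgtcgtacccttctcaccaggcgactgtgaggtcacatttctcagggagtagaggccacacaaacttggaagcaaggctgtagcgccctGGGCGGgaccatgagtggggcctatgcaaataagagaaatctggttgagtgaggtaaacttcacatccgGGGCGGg

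The promoters differed in composition. That of Neto2 had 74% G and C and 41 CpG pairs, where the median of all 33469 promoters of this length was 51.7% and 7. That of Cntn6 had 49.3% and 6, and that of Pfkfb4 had 58.3% and 12. GC boxes occurred at -74, -61 and -57 from the start of Neto2, the last pair overlapping, and at -126, -26 and 43 from that of Pfkfb4. The first of these in Pfkfb4 was on the minus strand. Cntn6 had no GC box, a motif found in 33.1% of promoters. Both strands were also searched for the receptor half-site AGAACA (in 20.7% of promoters), the hypoxia response core ACGTG (19.3%) and the TATA box TATAAA (14.2%), and none of these was in the 3 windows. The palindromic androgen response element, which holds that half-site on both strands 3 bases apart, and the palindromic oestrogen response element, which holds GGTCA on both strands 3 bases apart, were not in them either. They were rare, in 0.0149% and 0.0269% of promoters. The motifs were chosen after the values had been seen, and a match or its lack describes only these windows.

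Cpa6 (Entrez gene 312913) had the largest differences of the 5. Levels are on the deposited scale, read here as log2, where 1 unit is a factor of 2. Cpa6 was at 8.76, 9.98 and 9.72 on the control arrays, 5.83, 5.53 and 5.64 after castration, 5.73, 5.42 and 5.96 after estradiol, and 5.26, 5.53 and 5.77 after both. No treated array reached any control array, and a gap of 2.79 separated the lowest control from the highest treated array. The mean was 9.49 ± 0.64 (SD, n = 3) in control rats and 5.67 ± 0.15, 5.70 ± 0.27 and 5.52 ± 0.25 in the castrated, estradiol and combined groups. These are differences of -3.82, -3.78 and -3.97 (SE 0.27 each), or 14.1-, 13.8- and 15.6-fold lower levels. The control arrays had the widest spread of the 4 groups, with control 1 about 1 unit below the others.

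Neto2 (Entrez gene 307757) was at 9.57, 10.02 and 9.50 on the control arrays. The castrated arrays had 6.55, 6.44 and 6.36, the estradiol arrays 5.40, 6.60 and 6.70, and the combined arrays 6.29, 6.31 and 6.17. The treated arrays lay close together except estradiol 1, which stood more than 1 unit below the other estradiol arrays. The gap to the controls was 2.80. Group means were 9.70 ± 0.28 for control, 6.45 ± 0.09 for castrated, 6.23 ± 0.72 for estradiol and 6.26 ± 0.08 for combined rats (SD, n = 3). Neto2 was thus 9.51-, 11.1- and 10.9-fold lower, by -3.25, -3.47 and -3.44 on the log2 scale (SE 0.28 each). The estradiol difference was -3.05 without estradiol 1.

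Cntn6 (Entrez gene 27256) was at 7.30, 7.40 and 7.29 on the control arrays. Its levels were 4.01, 4.62 and 3.93 in castrated rats, 4.40, 5.01 and 4.71 after estradiol and 4.36, 4.42 and 4.33 after both. The control and combined arrays were each within about 0.1 of one another, while the castrated and estradiol arrays spread more widely. Means were 7.33 ± 0.06, 4.19 ± 0.38, 4.71 ± 0.31 and 4.37 ± 0.05 (SD, n = 3) for control, castrated, estradiol and combined rats. The differences from control were -3.14, -2.62 and -2.96 (SE 0.20 each), which is 8.84-, 6.15- and 7.78-fold, and the gap to the controls was 2.27.

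Oas1k (Entrez gene 494198) was measured at 8.42, 8.58 and 8.82 on the control arrays. Castrated rats had 4.995, 5.68 and 4.70, estradiol rats 4.91, 5.99 and 5.52, and rats with both treatments 5.74, 5.35 and 5.13. The treated groups overlapped one another throughout, and each spread more widely than the controls. With means of 8.61 ± 0.20, 5.12 ± 0.50, 5.47 ± 0.54 and 5.41 ± 0.31 (SD, n = 3), the differences from control were -3.49, -3.14 and -3.20 (SE 0.29 each). Levels were 11.2-, 8.80- and 9.19-fold lower, with a gap of 2.44. The rat genome holds several copies of Oas1, so the probes may share signal with a near-identical copy and the assignment to Oas1k is uncertain.

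Pfkfb4 (Entrez gene 54283) had the smallest difference after castration and the least overlap among treated groups. It was at 8.94, 9.12 and 8.99 in control rats, at 7.12, 6.90 and 6.83 in castrated rats, at 5.99, 6.45 and 6.18 after estradiol and at 6.62, 6.80 and 6.52 after both. Every estradiol array lay below every combined array, and every combined array below every castrated array. Means were 9.02 ± 0.09, 6.95 ± 0.15, 6.21 ± 0.23 and 6.64 ± 0.14 (SD, n = 3) for control, castrated, estradiol and combined rats. Pfkfb4 was 4.19-fold lower after castration, 7.01-fold after estradiol and 5.18-fold after both, with differences of -2.07, -2.81 and -2.37 (SE 0.16 each). The gap to the controls, 1.82, was the smallest of the 5.

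**Figure D1:**
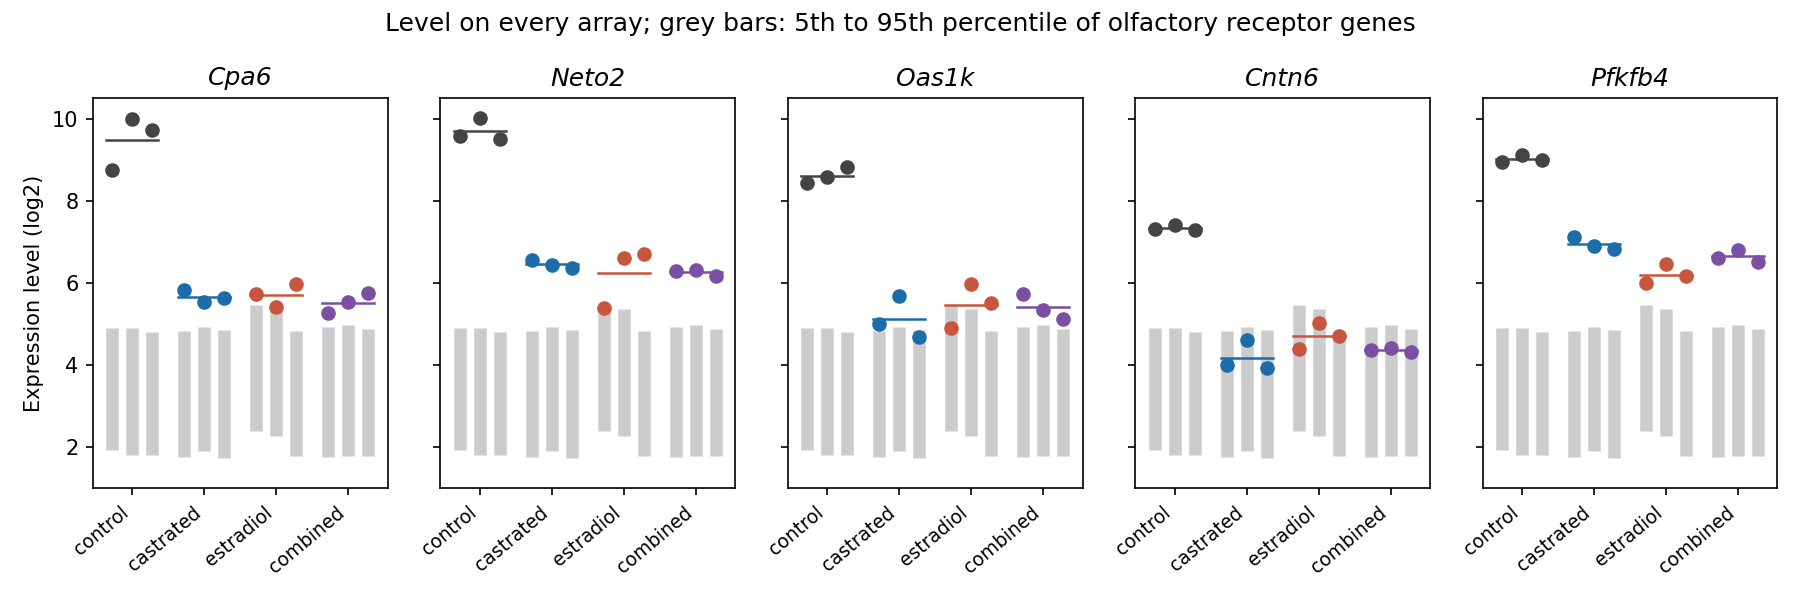
Level of each gene (log2, vertical axis) on each of the 12 arrays, by treatment group; points are arrays, lines are group means and grey bars run from the 5th to the 95th percentile of 1105 olfactory receptor genes on that array. All 9 treated arrays lie below all 3 control arrays for each gene, with gaps of 1.82 (Pfkfb4) to 2.80 (Neto2), and the treated arrays of Cntn6 lie within the grey bars.

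In all 15 comparisons with control the groups did not overlap. Since the genes were chosen for this, the count is set beside its background only as a description. Every castrated array was below every control array for 13.7% of all genes, every estradiol array for 15.1% and every combined array for 15.8%. All 9 treated arrays were below all 3 control arrays for 7.27% of genes, or 1054. The median difference of the 5 genes was -3.25 after castration, -3.14 after estradiol and -3.20 after both, beside 0.01, 0.07 and 0.04 over all genes.

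**Figure D2:**
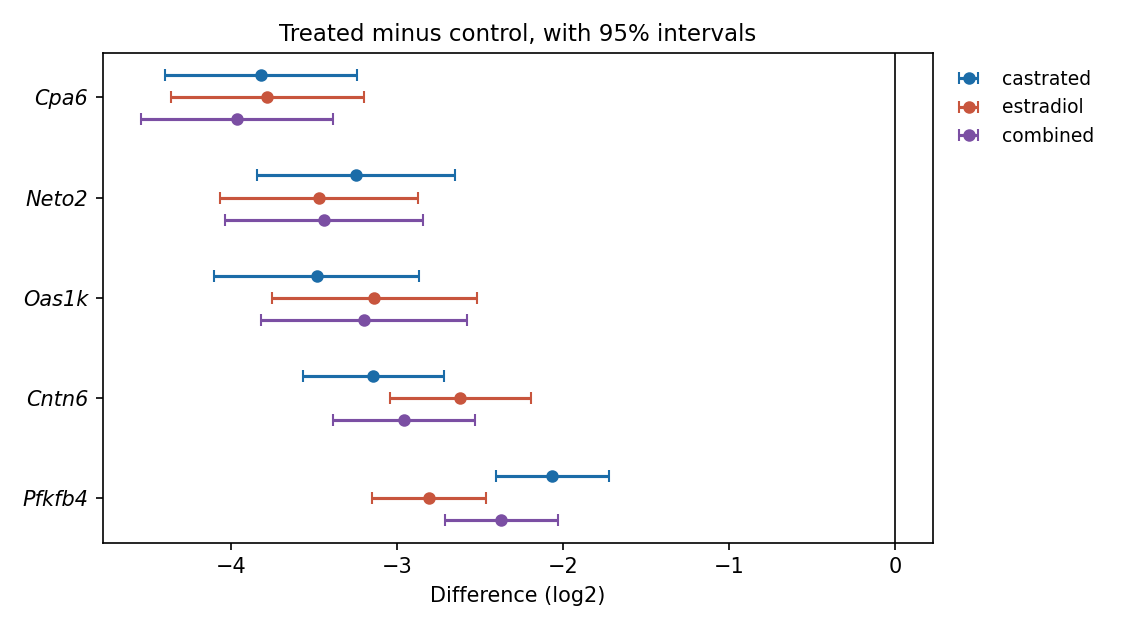
Difference from control (log2, horizontal axis) of each gene after castration, estradiol and both; points are differences of group means (3 arrays each) and bars are 95% intervals from limma, shown as a description because the genes were chosen by these values. Differences run from -3.97 (Cpa6, combined) to -2.07 (Pfkfb4, castrated).

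The level to which the genes came down was set beside 1105 olfactory receptor genes, taken as a group of genes little used by a prostate. Their 95th percentile was 4.81 to 4.98 on 10 arrays. On estradiol 1 and 2 it was 5.46 and 5.38, and their median was 3.71 on both, against 3.03 to 3.19 on the others. The values of these arrays were also less spread over all probe sets, with an SD of 1.93 and 2.01 against 2.24 to 2.30. All 5 genes were above the 95th percentile on all 3 control arrays. Not all of this reference is silent. Or4c11 had a control mean of 8.99, far above that level, and Or4c105 one of 4.95, and both were lower in every treated group.

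Cntn6 was below that percentile on all 9 treated arrays, so after every procedure its level was within the range of genes with little or no signal. Oas1k was above it on 7 of 9 treated arrays, with castrated 3 and estradiol 1 below. Neto2 was above it on 8 of 9, with estradiol 1 below. Cpa6 and Pfkfb4 were above it on 9 of 9, Cpa6 on estradiol 2 by only 0.04 and Pfkfb4 by at least 0.52. A difference from control understates the change where the lower level is at background, which holds for Cntn6 in each comparison. Neto2, Oas1k, Cntn6 and Pfkfb4 each had their lowest estradiol level on estradiol 1. The part of the narrower spread of estradiol 1 and 2 in these values was not tested. Without both arrays, which leaves the lone estradiol 3, the estradiol differences were -3.52 for Cpa6, -3.00 for Neto2 and -2.84 for Pfkfb4.

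The comparisons among the treated groups hold no control array and were tested with limma over all 14506 genes. Choosing genes that are low in every treated group favours small differences here. None of the 5 genes passed an adjusted p of 0.05 in any of the 15 comparisons, the smallest adjusted p being 0.143, and 0% of all genes passed in each of the 3 contrasts. At an unadjusted p under 0.05, 1.05% of genes and 0 of the 5 were reached for combined against castrated, 18.9% and 1 of the 5 for combined against estradiol, and 27.3% and 2 of the 5 for estradiol against castrated. The groups did not overlap in 4 of the 15 comparisons, 3 of them of Pfkfb4 and 1 of Neto2. Either direction was counted here, while the shares of all genes given below are each for 1 direction. The count and these shares are therefore not like for like, and the count is not read as a result about the 5 genes.

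Pfkfb4 differed most. Estradiol rats differed from castrated rats by -0.74 (95% interval -1.09 to -0.40, adjusted p = 0.143), with a gap of 0.38 between the groups. Combined rats were 0.44 above estradiol rats (0.10 to 0.78, adjusted p = 0.241) and at -0.31 from castrated rats (-0.65 to 0.04, adjusted p = 0.9999). The groups did not overlap in any of these 3 comparisons. All estradiol arrays were below all castrated arrays for 9.21% of genes. All combined arrays were above all estradiol arrays for 9.04% and below all castrated arrays for 6.64%. These shares cover only the direction seen for Pfkfb4, and shares for either direction would be at least as large. The intervals of the first 2 differences leave out 0, but neither passed the adjustment. Without estradiol 3, Pfkfb4 passed against castrated rats at -0.73 (adjusted p = 0.00911), where 5417 genes passed in place of 0. Without estradiol 1 and 2 the difference was -0.77 (adjusted p = 0.247).

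Cntn6 was 0.52 higher after estradiol than after castration (0.10 to 0.95, adjusted p = 0.150), with overlapping groups and levels within the background range. Estradiol 1 and 2, where background signal was highest, carried 4.40 and 5.01, and estradiol 3 carried 4.71. Without estradiol 1 and 2, which leaves the lone estradiol 3, the difference was 0.53. With arrays weighted by their quality, the difference between estradiol and castrated rats was 0.90 (adjusted p = 0.025). In that fit estradiol 1 and 3 had the lowest weights, 0.088 and 0.192, and estradiol 2 had 0.695. Cntn6 differed by 0.18 between combined and castrated rats (-0.24 to 0.61) and by -0.34 between combined and estradiol rats (-0.77 to 0.09).

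Cpa6, Neto2 and Oas1k differed little among the procedures relative to their error. Cpa6 differed by 0.04 between estradiol and castrated rats (-0.54 to 0.62), by -0.15 between combined and castrated (-0.73 to 0.43) and by -0.18 between combined and estradiol (-0.76 to 0.40). The same 3 differences were -0.22 (-0.82 to 0.38), -0.19 (-0.79 to 0.41) and 0.03 (-0.57 to 0.63) for Neto2. Its combined arrays lay just below its castrated arrays, by a gap of 0.05. For Oas1k they were 0.35 (-0.27 to 0.97), 0.29 (-0.33 to 0.90) and -0.06 (-0.68 to 0.56). All 9 intervals leave room for a difference of more than 0.5 in at least 1 direction, so they do not show that the procedures act alike.

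**Figure D3:**
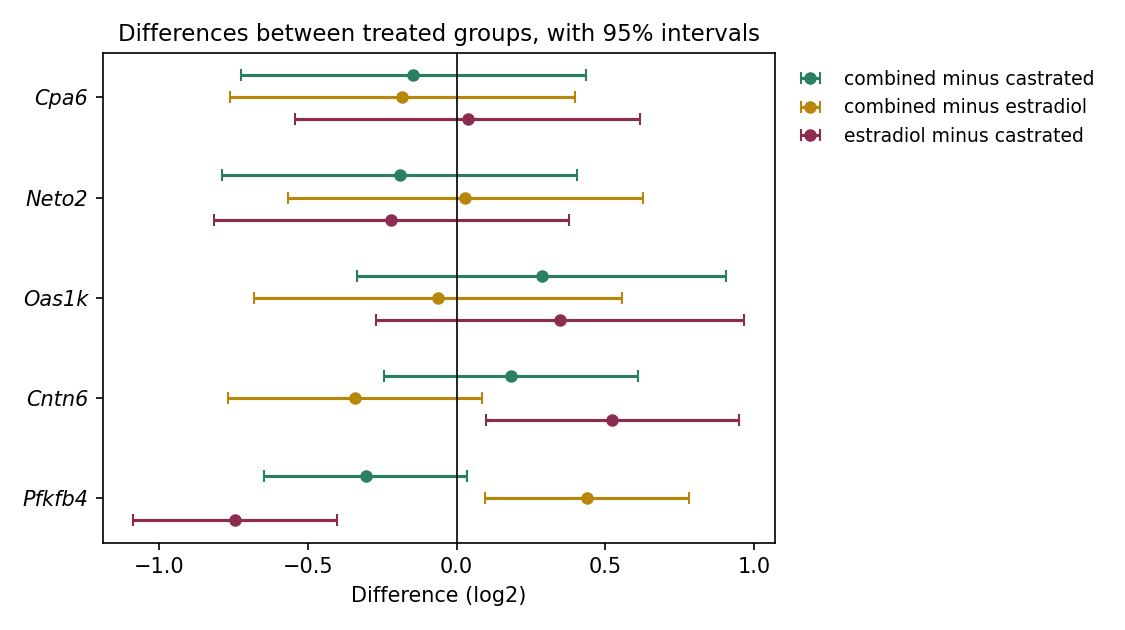
Differences between treated groups (log2, horizontal axis) of each gene; points are differences of group means (3 arrays each) and bars are 95% intervals from limma. The intervals of 3 of the 15 differences leave out 0, those of Pfkfb4 for estradiol against castrated and combined against estradiol, and that of Cntn6 for estradiol against castrated, and no adjusted p was under 0.05.

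The 5 genes are not strictly those with the largest lowering in every group. Ranked over all genes by the least of the 3 differences, Cpa6 was at rank 3, Neto2 and Oas1k followed, Cntn6 was at rank 8 and Pfkfb4 at rank 20. Cyp4a8, a fatty acid hydroxylase, and Pbsn were lower still, with least differences of 4.62 and 4.26. Above Pfkfb4 stood 15 genes that are not among the 5, namely these and Wfdc3, Lamp3, Lao1, Tcerg1l, Sorcs2, Or4c11, Mmd, Wdr25, Ptpn9, Elovl6, Lyzl6, Scd and Or4c105. Just outside, Nt5dc2, Psat1 and Atp1b1 had least differences of 2.05, 1.99 and 1.92 beside 2.07 for Pfkfb4. By the gap between the lowest control and the highest treated array, Neto2 and Cpa6 had 2.80 and 2.79, while Cyp4a8 and Pbsn had 1.198 and 0.789. The gap did not set the 5 genes apart, and it comes from the values by which they were chosen. Lamp3 (2.22), Sorcs2 (2.02), Wfdc3 (1.95), Tcerg1l (1.93), Ptpn9 (1.87), Lyzl6 (1.87) and Scd (1.84) had larger gaps than Pfkfb4 (1.82). The rest of the 15 genes had smaller gaps than Pfkfb4.

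**Figure D4:**
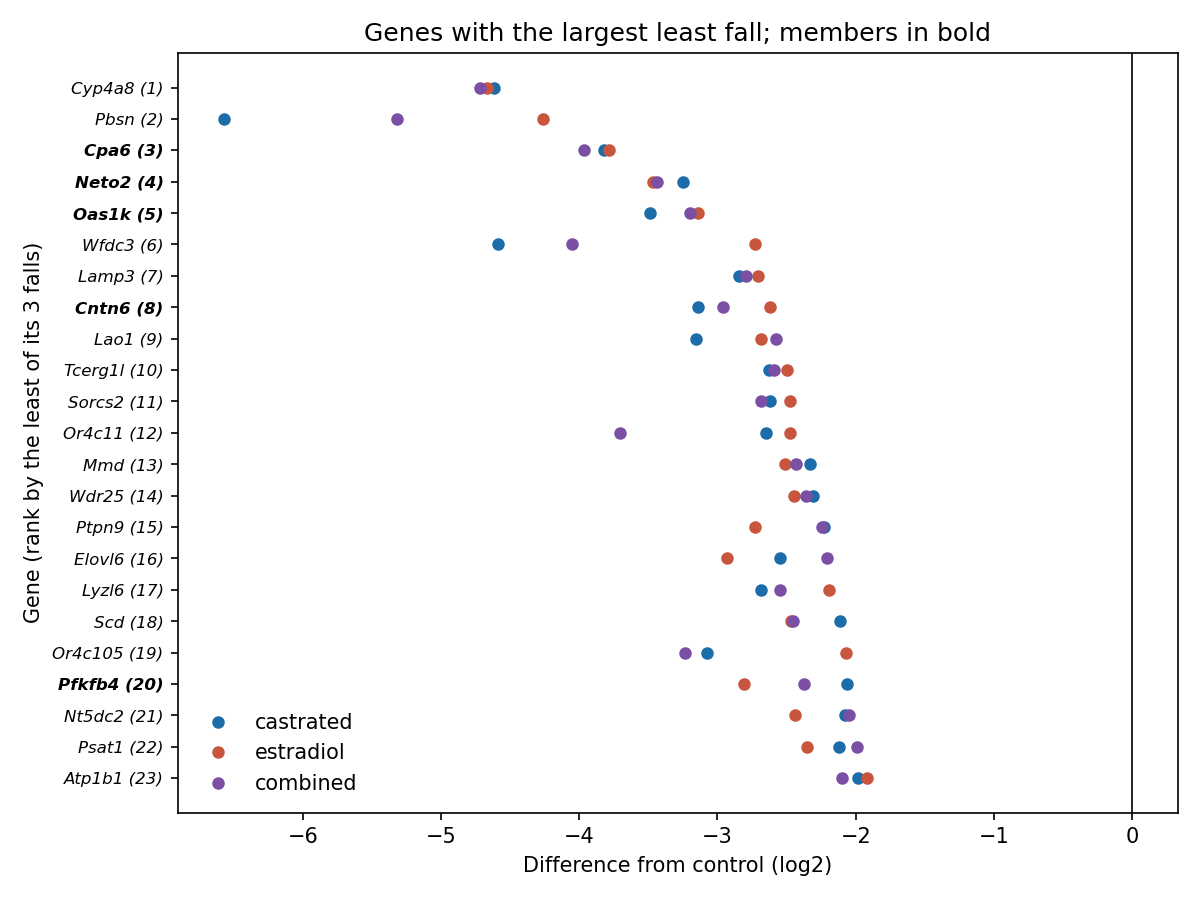
The 23 genes with the largest lowering in all 3 treated groups, ranked by the least of the 3 (rank in brackets); points are differences from control (log2, horizontal axis) in each treated group, and the 5 described genes are in bold. Cpa6 is at rank 3 with 3.78 and Pfkfb4 is at rank 20 with 2.07.

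Likeness of pattern was measured as the root mean square difference over the 12 arrays, in log2 units, after each gene was set against its own control mean. The values were not scaled, so the measure follows the size of the lowering, by which the 5 genes were chosen. That some of the 5 lie near one another is therefore not a separate result. Oas1k and Cntn6 were closest among the 5, at 0.38, followed by Neto2 and Oas1k at 0.39. Cpa6 and Pfkfb4 were farthest apart, at 1.32. The 3 genes nearest to Cpa6 were Neto2 (0.58), Oas1k (0.72) and Wfdc3 (0.85), and those nearest to Neto2 were Oas1k (0.39), Cntn6 (0.56) and Cpa6 (0.58). Oas1k was nearest to Cntn6, Neto2 and Lamp3 (0.66). Cntn6 was nearest to Oas1k, Lamp3 (0.39) and Tcerg1l (0.44). Pfkfb4 had other neighbours, none of them among the 5. They were Scd (0.23), which encodes a fatty acid desaturase, Ptpn9 (0.25), a tyrosine phosphatase, and B3gnt5 (0.34), a glycosyltransferase. Scd had differences of -2.11, -2.47 and -2.45 after castration, estradiol and both, Ptpn9 of -2.23, -2.73 and -2.24, and B3gnt5 of -1.84, -2.76 and -2.08.

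The 7 lists of genes from the same families and pathways were set beside them and held 100 measured genes without the 5. Of these, 11 passed after castration, 9 after estradiol and 8 after both. Over all genes 5.54%, 7.99% and 4.32% passed, with 3.17%, 2.51% and 2.12% higher and 2.36%, 5.48% and 2.21% lower. The shares of the listed genes were 11%, 9% and 8%. No list contained a gene lowered by as much as the gene it was built around in that same comparison. The 5 genes were chosen for their large lowering and the listed genes were not, so this is only a description.

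Among 14 other metallocarboxypeptidases, 1 fell after castration, 2 after estradiol and 1 after both, and 0 rose. The median differences were 0.06, 0.13 and 0.01. Cpm, a carboxypeptidase of the cell membrane, fell, with differences of -1.37 after castration (adjusted p = 0.0107), -2.12 after estradiol (adjusted p = 0.00063) and -1.12 after both (adjusted p = 0.0374). The call after castration was lost without control 1 (adjusted p = 0.0511), and that after both was kept in 10 of 22 alternatives. Cpa3, a mast cell carboxypeptidase, fell by 1.19 after estradiol (adjusted p = 0.035), a call kept in 13 of 22.

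Of 7 genes around Neto2, namely its relative Neto1, the kainate receptor subunits and the chloride transporter Slc12a5, none passed in any comparison with control. Only 1 of the 7 had a control mean above the background level of 4.91. The smallest p before adjustment was that of Grik3, a receptor subunit, at 0.68 after estradiol (adjusted p = 0.054), with a control level of 4.53.

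None of 11 other genes of the oligoadenylate synthetase family and the nuclease it activates passed either. Their median differences were 0.51 after castration, 0.07 after estradiol and 0.43 after both, where Oas1k had -3.49, -3.14 and -3.20. Of the 11, 7 had a control mean above the background level of 4.91, and a fall can hardly be measured in the others. Oas2 had the smallest p before adjustment, at 0.77 after castration (adjusted p = 0.160). Oas1e had 0.47 after estradiol (adjusted p = 0.147). Among 20 interferon-induced genes 2 rose and 1 fell after castration, and 0 rose and 1 fell after estradiol and after both. Ifih1, a sensor of double-stranded RNA, fell in all 3 comparisons, with differences of -1.51, -1.97 and -1.68 (adjusted p = 0.0036, 0.00062 and 0.0018). Ifit1 and Gbp2, both induced by interferon, rose by 1.40 and 0.85 after castration (adjusted p = 0.0282 and 0.0297). These 2 calls were kept in 15 of 21 and 14 of 22 alternatives.

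Among 12 contactins and partners, Notch1, a receptor that contactins can bind, rose by 2.10, 1.56 and 1.80 after castration, estradiol and both (adjusted p = 0.00014, 0.0017 and 0.00052). None of the others passed. Cntn1, Cntn2, Cntn3, Cntn4 and Cntn5 had differences between -0.15 and 0.48, with control levels of 3.75 to 4.88. These 5 were all below the background level of 4.91 in control rats, where a fall can hardly be measured, while Cntn6 was at 7.33. Of the 12 genes, 5 had a control mean above background.

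Of 21 genes of fructose 2,6-bisphosphate and glycolysis, 2 fell in each comparison and 0 rose, with median differences of -0.07, -0.11 and 0.03. Hk2, a hexokinase, fell with differences of -0.88, -1.16 and -1.28 (adjusted p = 0.0143, 0.0029 and 0.0013). Its castration call was lost without control 2 and without castrated 3 (highest adjusted p = 0.0896), and its estradiol call with only the 2 groups compared (adjusted p = 0.0565). Pfkfb2, another isoform of the enzyme, fell by 1.03 after castration and by 0.999 after both (adjusted p = 0.0023 and 0.0032), and had -0.54 after estradiol (adjusted p = 0.060). Slc2a1, a glucose transporter, fell by 0.86 after estradiol (adjusted p = 0.0412), a call kept in 9 of 22 alternatives. The other isoforms, named after their values were seen, did not pass. Pfkfb1 had -0.14, 0.07 and -0.18, and Pfkfb3 had 0.32, 0.55 and 0.32.

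Pfkfb4 is also known as a gene induced by low oxygen, and 15 other such genes were counted. After castration 2 rose and 2 fell, after estradiol 1 rose and 2 fell, and after both 2 rose and 1 fell. Adm, the hormone adrenomedullin, fell with differences of -1.49, -2.52 and -1.69 (adjusted p = 0.0018, 3.4e-05 and 0.00079). Ndrg1, a stress-response gene, rose by 1.60 after castration and 1.71 after both (adjusted p = 0.0012 and 0.00079), and had 0.70 after estradiol. Egln3, an oxygen-sensing hydroxylase, rose by 0.93, 0.78 and 1.07 (adjusted p = 0.0108, 0.0267 and 0.0051). Its castration call was kept in 20 of 22 alternatives, being lost without control 2 and without castrated 1. Its estradiol call was kept in 15 of 22 (highest adjusted p = 0.196). It was lost with array medians centred, with only the 2 groups compared and with array weights. It was also lost without control 1, control 2 or estradiol 2, and without estradiol 1 and 2 together. P4ha1, a collagen hydroxylase, fell by 0.78 after estradiol (adjusted p = 0.0065), a call lost with only the 2 groups compared and without estradiol 1 and 2 (highest adjusted p = 0.0979). Vegfa, named outside the rule, fell by 0.75 after castration (adjusted p = 0.0407), a call kept in 10 of 22 alternatives. Adm, like Pfkfb4, had its lowest level after estradiol.

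**Figure D5:**
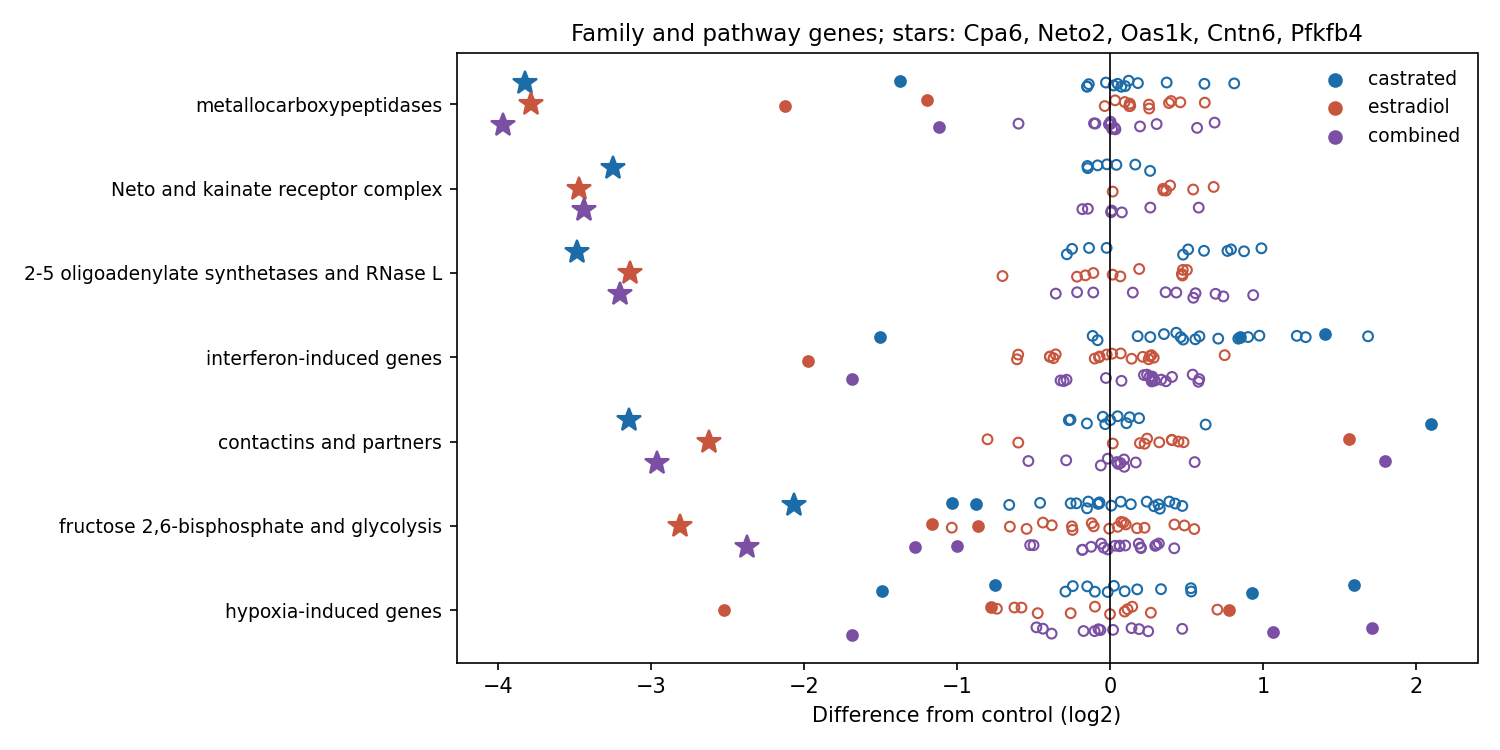
Differences from control (log2, horizontal axis) of the genes in each of 7 lists, with 1 circle per gene and treated group, filled where it passed an adjusted p of 0.05; stars are Cpa6, Neto2, Oas1k, Cntn6 and Pfkfb4 beside the list of their family. The 5 described genes, chosen for these low values, lie at -2.07 to -3.97. No listed gene lies as low as the star of its list in the same group.

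Markers of the cell types of the gland were read beside these results. Of 13 luminal epithelial markers 7 rose and 1 fell after castration, 4 rose and 2 fell after estradiol, and 8 rose and 1 fell after both. Krt8, a keratin of luminal cells, rose by 1.28, 0.81 and 1.06, whereas Pbsn fell, with differences of -6.57, -4.26 and -5.32. The estradiol call of Pbsn was kept in 17 of 22 alternatives, and its estradiol difference without estradiol 1 and 2 was -1.49. The mean of the luminal markers per array was 9.75 to 9.91 in control rats, 9.76 to 10.19 after castration, 9.62 to 10.15 after estradiol and 10.00 to 10.15 after both. The group means of this list were 9.82, 10.01, 9.83 and 10.07, over genes that moved in both directions. The lowest estradiol array was below the control range.

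Of 10 macrophage markers 6 rose after castration, 1 after estradiol and 3 after both, and 0 fell. Their array means were 6.69 to 7.23, 8.13 to 8.68, 7.02 to 8.26 and 7.67 to 8.17 in control, castrated, estradiol and combined rats. Nerve and Schwann cell markers were read for Neto2 and Cntn6. Of 13, Nefl, a neurofilament, fell in each comparison, with differences of -1.63, -1.25 and -1.53, and Mbp rose by 1.02 after estradiol. Their array means were 5.11 to 5.42, 4.998 to 5.07, 4.96 to 5.47 and 4.98 to 5.09. The list means of smooth muscle, fibroblast and endothelial markers were lower on all estradiol arrays than on all control arrays. Among these markers only Myh11, Postn and Cldn5 had a higher mean after estradiol than in control rats, by 0.03, 0.29 and 0.02. Of 8 smooth muscle markers 1, Cnn1, fell by 1.40 after estradiol (adjusted p = 0.0183), and array means were 8.69 to 8.87 in control, 8.17 to 8.81 in castrated, 8.04 to 8.47 in estradiol and 8.55 to 9.07 in combined rats. Of 9 fibroblast markers Dpt fell by 0.878 after estradiol and Postn rose by 1.16 after castration and 1.12 after both, with array means of 7.90 to 8.30, 7.89 to 8.57, 7.37 to 7.73 and 7.90 to 8.38. Of 8 endothelial markers Pecam1 fell by 0.584 after estradiol, with array means of 6.02 to 6.23, 6.18 to 6.26, 5.64 to 5.89 and 6.09 to 6.29.

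The mean of the lymphocyte markers was higher on all estradiol and combined arrays than on all control arrays. Of these 8 markers, Cd3g rose in each comparison, by 0.602, 0.692 and 0.630, and Cd2 by 0.622 after estradiol. The array means were 4.73 to 4.90, 4.89 to 5.21, 5.10 to 5.25 and 4.99 to 5.16 in control, castrated, estradiol and combined rats. Cd4 had -0.15 after estradiol and Ms4a1 -0.12 after both, and neither passed. Cd3g was at 3.38 in control rats and 3.98 to 4.07 in treated groups, under the background level of 4.91. Cd2 was at 4.43 in control and 5.05 in estradiol rats, and background signal was raised on estradiol 1 and 2. The part of that background in these values was not tested. None of 5 basal epithelial markers passed, with array means of 7.47 to 7.71, 7.60 to 8.21, 7.70 to 8.08 and 7.94 to 8.28. The part of these cell types in the 5 results was not tested.

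The genes beside the 5 on the chromosomes mostly did not pass. For each gene the nearest measured pair on each side was taken from the RefSeq order on GRCr8, 20 genes in all, after the values had been seen. In each comparison 1 of the 20 fell and 1 rose. Over all genes 2.36%, 5.48% and 2.21% fell and 3.17%, 2.51% and 2.12% rose after castration, estradiol and both. Gpt2, an alanine aminotransferase gene near Neto2, fell, with differences of -1.43, -1.04 and -1.53 after castration, estradiol and both (adjusted p = 5.0e-05, 0.00078 and 2.8e-05). Sulf1, a heparan sulfate sulfatase gene near Cpa6, rose by 2.75, 2.02 and 1.85 (adjusted p = 0.0018, 0.0131 and 0.0247), and its estradiol and combined calls were kept in 19 and 17 of 22 alternatives. Oas1b, Oas1e, Oas3 and Oas2, which flank Oas1k, did not pass, and neither did Cntn3 and Cntn4, which flank Cntn6 together with Il5ra and Ppp4r2. Control means of Oas1b, Oas1e, Cntn3, Cntn4 and Il5ra were 2.56 to 4.69. These are under the background level of 4.91, where a fall can hardly be measured. Around Pfkfb4, none of Col7a1, Ucn2, Shisa5 and Trex1 passed.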

How the data were processed

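RNA of 12 ventral prostate samples, 3 per group, was hybridized to Affymetrix arrays from 500 ng of total RNA out of 30 mg of tissue, per the labels' protocols. The deposited values, read as log2 levels of probe sets, were made by the authors with Affymetrix Expression Console, per the submitters' processing notes. The scale was read from the values, 0.797 to 13.4. Neither the normalization nor the log base is given in the sources used here. Of 29214 probe sets, 15310 had 1 gene symbol, 323 several and 13581 none. Where several probe sets shared a gene (527 genes), that of highest mean stood for it, giving 14506 genes. The number of arrays limits the precision, and the median standard error of a difference was 0.19.

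Groups were compared with limma's lmFit and eBayes (version 3.58.1, R 4.3.3), fitted to all 12 arrays with a mean for each group (residual degrees of freedom 8, prior 5.29). Tests were 2-sided, with Benjamini-Hochberg adjustment over all genes and a threshold of 0.05, and the procedure was tested on simulated data. Only genes that passed are said to have risen or fallen. Alternatives changed the normalization, the filter on dim genes, the probe set rule, the arrays in the fit, the spread model and the block. Same-numbered castrated and estradiol arrays deviated together (correlations of deviations from the group means 0.144, 0.284 and 0.197). Whether the numbers pair these 2 groups is not given by the labels and was not tested. In no other pair of groups did all 3 pairs exceed 0.1. Arrays of unlike number were not set beside them, so these correlations do not show a pairing. The main fit, which gave the intervals and adjusted p above, left any pairing out, and results with a block are reported below. Sequences came from RefSeq. Plots were made in Python 3.11.15 (matplotlib 3.10.9).

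The members and lists were chosen with earlier results of these data known. Genes named are the 5, the 3 most like each, all ranked above the last of them by least difference and the 3 after it, Pbsn, and per list up to 4 that passed with the largest differences or else the 1 with the smallest p. Marker genes, chromosomal neighbours, Pfkfb1, Pfkfb3, Vegfa and the other contactins were named outside this rule, after their values were seen.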

Additional observations from a re-analysis of the deposited data

Results flagged for a closer look

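Pfkfb4 met a criterion for opposite directions of castration with and without estradiol, of which only 1 direction is free, because the gene was chosen for being lower than control. Without estradiol, castrated arrays (6.83 to 7.12) were below control arrays (8.94 to 9.12). With estradiol, castrated arrays (6.52 to 6.80) were above those of intact rats (5.99 to 6.45), by 0.44 on average. That difference did not pass (adjusted p = 0.241 by limma), and 9.04% of all genes showed the same separation. The difference between the 2 effects was not tested.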

How the results depend on the processing

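Under 22 alternatives the differences of the 5 genes from control never changed sign, and their medians ran from -3.36 to -3.11 after castration, -3.40 to -2.85 after estradiol and -3.37 to -3.06 after both. Of 330 such values, 328 moved by less than the spread between replicates. The others were those of Neto2 after estradiol without estradiol 1 (-3.05) and without estradiol 1 and 2 (-3.00). Many alternatives could not move a difference, so the count of 328 says little about robustness. These were the probe set rule, the dim filter, the spread model, the block, the fit to only the 2 groups compared and arrays left out of other groups.

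None of the 5 passed between combined and castrated or between combined and estradiol rats under any alternative. Between estradiol and castrated rats 0 passed, 1 with array weights (Cntn6), and 0 to 1 when 1 array was left out (Pfkfb4, without estradiol 3). Of 330 differences of the 5 genes between treated groups, 15 changed sign, none of which had passed.

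The count of list genes that passed after castration was 11. It was 44 with array weights, 20 without estradiol 1 and 2, and 6 to 16 when 1 array was left out. After estradiol it was 9, and 4 with only the 2 groups compared and 6 to 33 when 1 array was left out. After both it was 8, and 21 with only the 2 groups compared, 32 with array weights, 17 without estradiol 1 and 2, and 7 to 14 when 1 array was left out. Over all genes the counts of 803, 1159 and 627 ranged from 361 (without control 2) to 3788 (array weights), from 197 (only the 2 groups) to 5329 (without estradiol 3) and from 265 (without control 2) to 4134 (array weights). Between treated groups up to 13, 4153 and 5417 genes passed for combined against castrated (array weights), combined against estradiol and estradiol against castrated (both without estradiol 3). Leaving out estradiol 1 and 2 leaves 1 array, whose spread is taken from the other groups.

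Groups share replicate numbers. In 5 of the 6 pairs of groups at least 1 same-numbered pair of arrays had a correlation of deviations of 0.1 or less (over all 18 pairs, 7 were above 0.1, with a range of -0.16 to 0.28). With the number as a replicate block, 825, 1255 and 651 genes passed against control in place of 803, 1159 and 627. The differences of the 5 genes were unchanged, which the balanced groups fix in advance. Pfkfb4 then had an adjusted p of 0.118 and Cntn6 of 0.128 for estradiol against castrated rats, where 0 genes passed with the block as without it. The castration call of Vegfa was lost with the block (adjusted p = 0.0531).

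With 3 arrays per group, unknown normalization and signal near background for Cntn6, precision is limited. All calls against control share the same 3 control arrays.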
